A study of Mus musculus with 9 samples.

Results

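Gene expression in mature cartilage of the mouse was set against the midpoint of the expression levels in immature cartilage and in bone. The data are RNA sequencing counts from strain C57BL/6J, with 3 libraries per tissue. Immature chondrocytes stand for immature cartilage (ImC), mature chondrocytes for mature cartilage (MatC) and osteoblasts for Bone. All 3 tissues came from this strain, and neither a genetic change, a treatment, an age nor a skeletal element is given in the sources used here. Whether the 3 libraries of a tissue came from separate animals is also not given, so p-values measure only the spread between these libraries, which may be technical. For each gene the contrast was the log2 level in MatC minus the mean of the log2 levels in ImC and Bone, and 14257 of 43472 genes in the table had enough reads to be tested. A gene was called when its adjusted p (edgeR's quasi-likelihood test, Benjamini-Hochberg adjustment over all genes tested) was under 0.05. By this rule 425 genes were called above the midpoint (2.98% of those tested) and 11 below it (0.0772%).

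In the growth cartilage of developing bones, proliferating chondrocytes secrete a matrix of type II collagen and aggrecan. They then mature into hypertrophic chondrocytes, which make type X collagen and the signal Indian hedgehog, and which come to express several genes that osteoblasts use to mineralise matrix. SOX9 is the transcription factor that directs the cartilage programme, RUNX2 and SP7 direct the bone programme, and mature chondrocytes carry all of them. The study's title names averaging and synergism as ways in which the cartilage and bone networks meet in maturing cartilage. Averaging would place a gene between the other tissues and synergism beyond them. The midpoint contrast shows, gene by gene, on which side of the midpoint MatC lies. It does not by itself separate averaging from synergism, because a gene called above the midpoint can still lie between the tissues. Whether MatC stood beyond both tissues was tested separately.

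Total counts ran from 7913684 to 23159547 per library. Mitochondrially encoded genes took 32.0 to 55.0% of counts in ImC, 33.7 to 82.3% in MatC and 7.24 to 8.91% in Bone. MatC replicate 3 stood apart, with 82.3% of its counts from these genes and a read in 14940 genes; every other library had reads in 17535 or more. A level is given in counts per 1e6 scaled reads (CPM), and 3 reads equal 0.849 CPM in that library against at most 0.257 CPM in the others. The median SD of log2 levels over genes was 0.57 in ImC, 0.63 in MatC and 0.23 in Bone. Means are given ± SD over the 3 libraries of a tissue (n = 3), log2 differences ± SE, and libraries are listed in the order of replicates 1, 2 and 3. In these bulk libraries, fewer cells of a type and less RNA per cell cannot be told apart.

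The genes called away from the midpoint lay almost entirely above it. Of the 425 genes called above it, 355 (83.5%) had a mean level in MatC above both other tissues, against 23.8% of all genes tested, and 70 lay between them. Of those 70, the mean was higher in ImC for 46 genes and higher in Bone for 24. All 11 genes called below the midpoint had a mean below both tissues, against 21.6% of all genes tested. That order of means was not always a clear difference. For Lhx8 it rests on 2 reads in MatC and 3 in ImC. Gm26603 was not called between MatC and Bone (-0.25 ± 0.30, adjusted p = 0.674). At an unadjusted p under 0.05, 1616 genes lay above and 549 below. In 168 of the 425 genes every MatC library exceeded all 6 other libraries, which was so for 316 (2.22%) of all genes tested. The opposite, all MatC libraries under the other 6, held for 263 genes (1.84%). Calling genes by their distance from the midpoint itself favours means beyond both tissues and a lack of overlap. The shares over all genes are therefore background and not a test of these positions. At least 1 of ImC and Bone held 3 reads or fewer in 88 of the 425 genes.

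**Figure D1:**
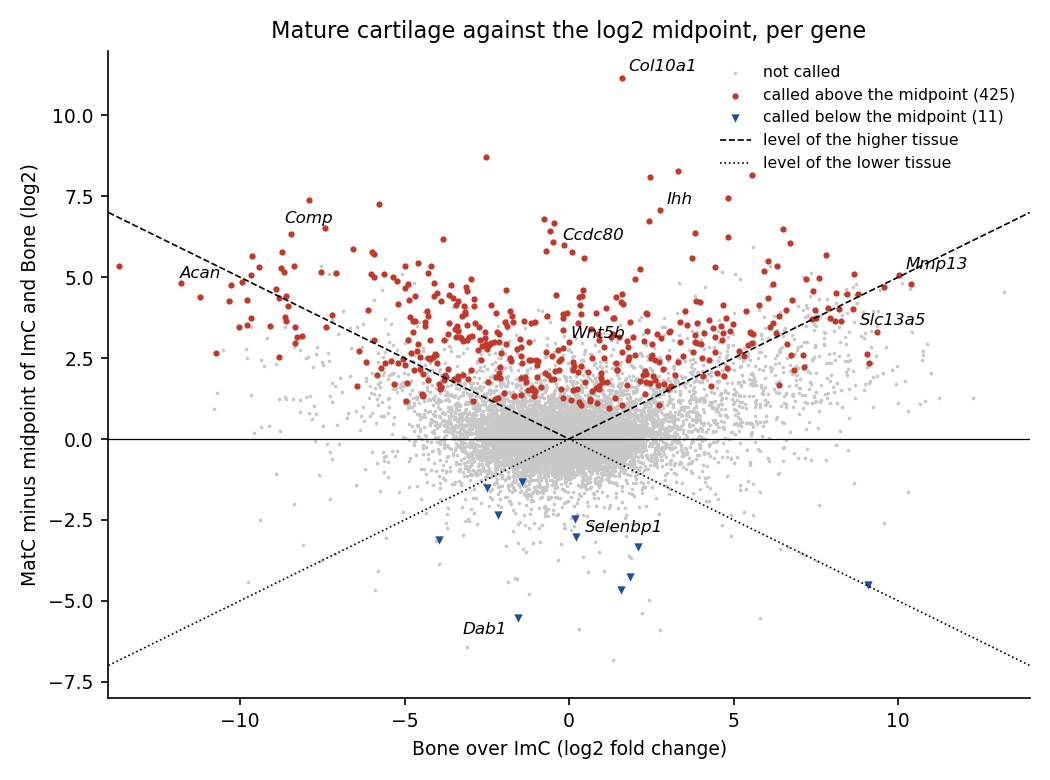
Each point is 1 of 14257 genes, with the log2 fold change of Bone over ImC on the horizontal axis and the log2 level of MatC minus the midpoint on the vertical axis. The 425 genes called above (red) lie on both sides of the dashed line that marks the higher tissue, while the 11 called below (blue triangles) are few; the dotted line marks the lower tissue.

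The scale of the midpoint set how many genes departed from it. The log2 midpoint is a geometric mean, which lies below the arithmetic mean of the CPM levels (the linear midpoint) wherever the tissues differ. Against the linear midpoint 62 genes were called above (0.435%) and 21 below (0.147%). All 62 were among the 425, and 405 of the 425 (95.3%) kept the same sign. A stricter question is whether MatC stood beyond the nearer tissue, tested by requiring both MatC over ImC and MatC over Bone to pass. That test called 8 genes above both tissues (0.0561%) and 0 below. At an unadjusted p under 0.05 it gave 313 above and 88 below, and DESeq2 called 72 above and 4 below. Leaving out any 1 Bone library or ImC replicate 2 reduced the 8 to 0 calls, and 2 were left without replicate 1 of ImC or without replicate 1 or 3 of MatC.

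The count of 425 also moved with single libraries. It was 157, 126 and 169 without Bone replicates 1, 2 and 3. It was 214 without ImC replicate 1 and 662 without ImC replicate 3. Without MatC replicate 3 it was 343, and 230 of the 425 (54.1%) were still called. MatC replicate 3 was the highest MatC library in 265 of the 425 genes, against 4692 of all 14257 tested. The count below was 4 without ImC replicate 1, 7 without ImC replicate 2, 45 without ImC replicate 3, 25 without MatC replicate 2 and 2 to 3 without a Bone library. Without both the ImC and the MatC replicate 3, 766 genes were above and 54 below. A core of 42 genes stayed above the log2 midpoint in all 18 alternative analyses that kept this midpoint, among them Col10a1, Ihh, Acan, Comp, Matn1, Matn3, Col9a1, Col9a2, Col9a3, Foxa3, Sgms2, Prelp, Wnt5b and Rspo3. Of the 11 below, 1 did so, Dab1.

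The promoters of the genes that stood highest above both tissues are shown because these genes had low levels in ImC and Bone alike and a common rise in MatC. The 250 bases before the start site are printed for Col10a1 and for the next 3 genes in order of that excess with an entry in the RefSeq promoter table (GRCm38.p6), 5′ to 3′ on the gene's strand. They lie at chr10:34389731-34389980 (Col10a1, plus strand), chr5:101764880-101765129 (Cds1, plus strand), chr2:76338939-76339188 (Pde11a, minus strand) and chr1:74951673-74951922 (Ihh, minus strand). Capitals mark TATAAA, the core of a TATA box.
Col10a1: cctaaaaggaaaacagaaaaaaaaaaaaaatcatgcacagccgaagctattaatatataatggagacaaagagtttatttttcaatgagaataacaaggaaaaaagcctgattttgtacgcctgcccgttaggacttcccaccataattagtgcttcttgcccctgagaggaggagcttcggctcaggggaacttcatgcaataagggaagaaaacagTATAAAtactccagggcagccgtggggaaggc
Cds1: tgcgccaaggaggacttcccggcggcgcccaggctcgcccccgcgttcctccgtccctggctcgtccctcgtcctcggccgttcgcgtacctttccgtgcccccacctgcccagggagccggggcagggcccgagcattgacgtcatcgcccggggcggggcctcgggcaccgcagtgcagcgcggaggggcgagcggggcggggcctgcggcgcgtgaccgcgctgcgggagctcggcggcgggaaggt
Pde11a: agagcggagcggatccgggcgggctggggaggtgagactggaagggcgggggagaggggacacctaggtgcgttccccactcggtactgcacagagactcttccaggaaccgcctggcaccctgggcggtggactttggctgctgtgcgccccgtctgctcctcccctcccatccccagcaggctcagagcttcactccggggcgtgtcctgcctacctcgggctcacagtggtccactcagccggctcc
Ihh: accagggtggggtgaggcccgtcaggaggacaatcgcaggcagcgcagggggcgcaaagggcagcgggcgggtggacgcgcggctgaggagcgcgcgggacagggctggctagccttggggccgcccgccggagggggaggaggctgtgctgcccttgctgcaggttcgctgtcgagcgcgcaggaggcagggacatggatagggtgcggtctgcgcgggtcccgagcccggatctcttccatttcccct
The Col10a1 promoter held TATAAA starting 32 bases before the start site and had a GC content of 41.6%. The other 3 promoters had no TATAAA in the 50 bases before the start and GC contents of 77.6% (Cds1), 68.4% (Pde11a) and 72.0% (Ihh), against a median of 52.0% over 27025 genes. The RefSeq start of Pde11a did not match a GENCODE transcript, so its window may not be that of the transcript counted here.

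None of the 4 windows held TGTGGT (the core bound by RUNX factors), TGANTCA (AP-1), TGTTTAC (forkhead factors) or CTANNNNTAG (MEF2), searched on both strands with any base at N. Over the promoters of the 281 genes called above the midpoint that have an entry, TGTGGT was in 12.1%, TGANTCA in 6.05%, TGTTTAC in 3.56% and CTANNNNTAG in 2.85%. Over the 10008 genes tested with an entry the shares were 10.2%, 3.92%, 2.04% and 2.62%. TATAAA, searched on the gene's strand after the sequences had been seen, was in 6.41% of the former and 1.49% of the latter. These are letter matches in 1 short window and say nothing of binding. Of the 8 genes beyond both tissues, 7 had an entry; Prom1 held TGTGGT and TGANTCA, and Wnt5b held TGANTCA.

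Col10a1 (type X collagen, the defining matrix protein of hypertrophic cartilage, chr10:34389981-34397085, GENCODE M21 on GRCm38) showed the largest departure from the midpoint of all genes tested. Its level was 817, 933 and 4760.4 CPM in MatC, 0.7499, 0.447 and 0.427 CPM in ImC and 1.68, 2.48 and 0.845 CPM in Bone. Every MatC library was far above the other 6, and replicate 3 was the highest. The mean in MatC, 2170.1 ± 2244 CPM, was 4010.0-fold that in ImC and 1300.0-fold that in Bone. The midpoint difference was 11.16 ± 0.60 on the log2 scale (adjusted p = 0.000114), and 9.85 without replicate 3 of MatC. The difference was 10.96 ± 0.61 against the linear midpoint, and the adjusted p for standing beyond both tissues was 0.00926.

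Ihh (Indian hedgehog, the secreted signal of prehypertrophic and early hypertrophic chondrocytes, chr1:74945315-74951672) had the same order of levels. It measured 145, 69.2 and 254 CPM in MatC, 0.9999, 0.248 and 0.142 CPM in ImC and 1.79, 3.596 and 3.66 CPM in Bone. The groups did not overlap, and the lowest MatC library was above the highest Bone library by more than 10 times. Its mean was 337-fold that of ImC and 51.8-fold that of Bone. The log2 midpoint difference was 7.08 ± 0.53 (adjusted p = 0.000307), and the adjusted p beyond both tissues was 0.0243. Wnt5b, a Wnt ligand that signals mainly outside the beta-catenin route (chr6:119432531-119544347), measured 30.5, 27.2 and 73.5 CPM in MatC, 2.67, 2.58 and 5.199 CPM in ImC and 3.25, 3.25 and 2.76 CPM in Bone. Here ImC and Bone overlapped, with means of 3.48 ± 1.49 CPM and 3.09 ± 0.284 CPM, and each MatC library was above both. The difference from the midpoint was 3.73 ± 0.38 (adjusted p = 0.000886; 3.14 without replicate 3 of MatC), with an adjusted p beyond both of 0.0282.

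Another 4 genes beyond both tissues and named by rule are enzymes or surface and matrix proteins. Ccdc80 (a secreted protein of the extracellular matrix, chr16:45093402-45128077) measured 110.3, 72.6 and 332 CPM in MatC, 1.83, 3.72 and 3.35 CPM in ImC and 2.92, 2.397 and 4.17 CPM in Bone. Pde11a (a phosphodiesterase that breaks down cyclic AMP and cyclic GMP, chr2:75989141-76338774) measured 10.7, 5.36 and 17.5 CPM in MatC against 0.167, 0.0496 and 0.356 CPM in ImC and 0.108, 0.171 and 0.113 CPM in Bone. For both genes the ImC and Bone libraries overlapped each other, and every MatC library was above them. Prom1 (prominin, a membrane glycoprotein of cell protrusions, chr5:43993620-44102032) measured 53.8, 16.6 and 44.4 CPM in MatC against 2.08, 2.63 and 1.28 CPM in ImC and 0.9745, 1.798 and 1.86 CPM in Bone. Gcnt2 (a glucosaminyltransferase that branches cell surface glycans, chr13:40859754-40960892) measured 25.5, 10.4 and 28.3 CPM in MatC against 0.4999, 0.596 and 0.712 CPM in ImC and 1.84, 1.63 and 1.46 CPM in Bone. In both of these MatC replicate 2 was the lowest of its group and still above all 6 other libraries. The log2 midpoint differences were 5.79 ± 0.46 for Ccdc80 (4.89 without replicate 3 of MatC), 6.10 ± 0.61 for Pde11a, 4.44 ± 0.41 for Prom1 and 4.403 ± 0.37 for Gcnt2, with adjusted p = 0.000395, 0.00074, 0.000656 and 0.000395. Their adjusted p beyond both tissues ran from 0.0231 (Ccdc80) to 0.0282 (Pde11a).

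Nim1k, a kinase related to the energy sensor AMPK, was the eighth gene beyond both and is named because it was called, outside the rule for naming (chr13:119710094-119755882). It measured 65.4, 44.3 and 55.7 CPM in MatC, 9.999, 9.18 and 14.4 CPM in ImC and 1.25, 1.199 and 1.295 CPM in Bone. Every ImC library was above every Bone library, and every MatC library above both. The midpoint difference was 3.88 ± 0.25 (adjusted p = 0.000114), and MatC exceeded ImC by 2.30 ± 0.28. All 8 genes stayed above the midpoint in every alternative in which they were tested, the linear midpoint included. Beyond both tissues, Col10a1 was called in all but the 4 analyses that left out a Bone library or ImC replicate 2.

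**Figure D2:**
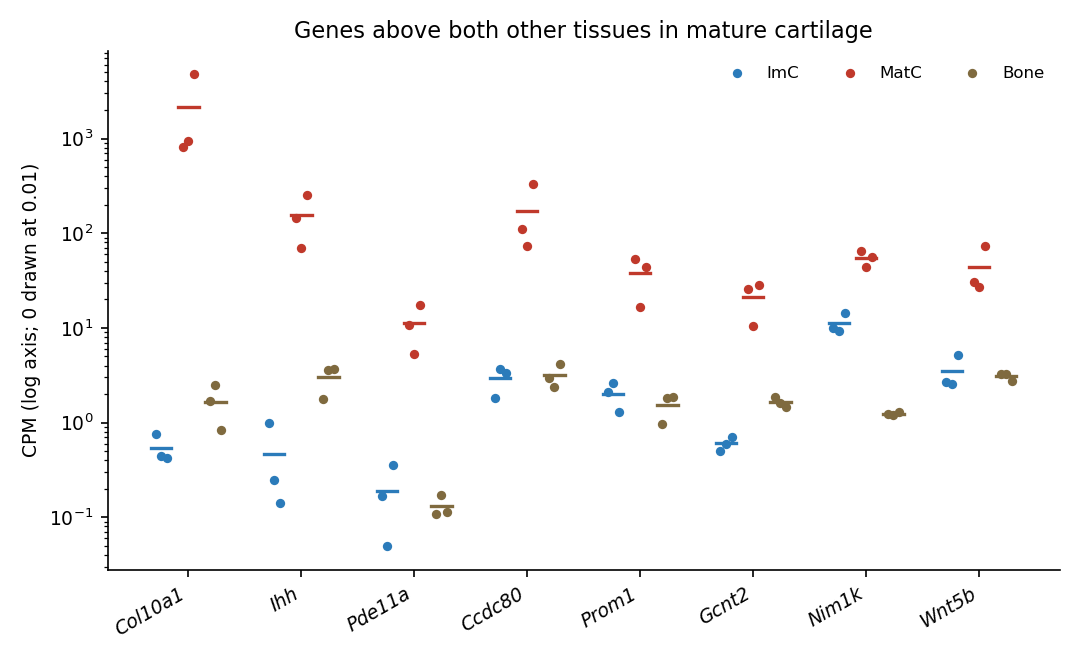
CPM (log axis) of the 8 genes beyond both tissues in each of the 9 libraries, with points for libraries and short lines for the mean of each tissue (blue ImC, red MatC, brown Bone). All 3 MatC points lie above the 6 others for each gene, from Col10a1 at 817 to 4760 CPM in MatC to Wnt5b at 27.2 to 73.5 CPM.

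A further 8 genes in which no MatC library overlapped the others were also among the 15 with the largest excess over the nearer tissue. They were called above the midpoint but not beyond both tissues. Itga7 (the laminin-binding integrin alpha 7 chain, chr10:128933818-128958282) measured 11.8, 16.8 and 54.03 CPM in MatC, with 13 and 11 reads in all of ImC and Bone. Cds1 (an enzyme of phosphatidylinositol synthesis, chr5:101765130-101823858) measured 21.2, 18.2 and 73.5 CPM in MatC against 0.917, 0.893 and 0 CPM in ImC and 0.433, 0.514 and 0.676 CPM in Bone. Thrb (thyroid hormone receptor beta, chr14:17660261-18038090) measured 19.2, 9.799 and 20.6 CPM in MatC against 1.33, 0.0496 and 0.712 CPM in ImC and 0.9745, 0.685 and 0.957 CPM in Bone. Each was low in both other tissues, and in all 3 genes MatC replicate 3 was the highest library. The midpoint differences were 6.68 ± 0.85 for Itga7 (adjusted p = 0.00304; 7.42 without replicate 3 of ImC and 5.75 without replicate 3 of MatC), 6.00 ± 0.69 for Cds1 (0.00182; 5.08 without replicate 3 of MatC) and 4.41 ± 0.62 for Thrb (0.0052).

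Genes of tendon, elastic fibres and nerve adhesion were among these 8. Tnmd (tenomodulin, a tendon and ligament marker, chrX:133850980-133865577) had 0 reads in ImC and measured 37.7, 1.62 and 13.01 CPM in MatC and 0.596, 0.0856 and 0.507 CPM in Bone. Pooled over its 3 libraries, the MatC level was at least 282-fold the ImC floor of 3 reads over the group, and the adjusted p was 0.00979 (midpoint difference 8.15, and 6.85 without replicate 1 of MatC). Nfasc (neurofascin, an adhesion molecule of nerve, chr1:132564690-132741797) had 0 reads in Bone and measured 3.87, 6.56 and 20.6 CPM in MatC, pooled at least 112-fold the Bone floor (adjusted p = 0.00521; difference 7.25, and 6.36 without replicate 3 of MatC). These fitted differences depend on the prior count where a tissue has 0 reads and are no bounds. Fbln5 (fibulin 5, which helps to assemble elastic fibres, chr12:101746565-101819055) measured 42.3, 12.8 and 12.4 CPM in MatC against 0, 0.298 and 0 CPM in ImC and 0.704, 1.28 and 3.097 CPM in Bone. Its difference was 5.59 ± 0.79 (adjusted p = 0.00399), 7.47 without replicate 2 of ImC and 4.75 without replicate 1 of MatC. Corin (a protease that activates atrial natriuretic peptide, chr5:72300025-72504473) measured 16.2, 4.65 and 19.5 CPM in MatC against 0, 0.397 and 0 CPM in ImC and 0.433, 0.171 and 1.52 CPM in Bone, a difference of 5.27 ± 0.89 (adjusted p = 0.0112; 5.85 without replicate 3 of Bone and 7.31 without replicate 2 of ImC).

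The hypertrophic chondrocyte list had 10 of 23 genes called above the midpoint and 0 below, against 2.98% above over all genes. Its median difference was 2.45, where the median over all genes was 0.06. The 10 were Col10a1, Ihh, Sgms2, Foxa3, Mmp13, Alpl, Mef2c, Scin, Pth1r and Foxa2, and 5 of the 23 were also called above the linear midpoint. The list's median was above the midpoint in each MatC library, at 2.11, 1.86 and 2.03 in replicates 1, 2 and 3. The summed level of the list was higher in Bone (20730.0 to 25760.0 CPM) than in MatC (9136 to 18050.0 CPM) and ImC (2206 to 2586 CPM). Ibsp, a bone matrix gene on the list, made up most of the Bone sum, with 16294 to 20079 CPM.

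Members of this list differed in their level in Bone. Sgms2 (sphingomyelin synthase 2, chr3:131318985-131491411) measured 899, 531 and 842 CPM in MatC, 5.499, 7.197 and 5.06 CPM in ImC and 448, 512 and 527 CPM in Bone. All 3 MatC libraries were above all 3 Bone libraries, but the difference from Bone was 0.61 ± 0.30 (adjusted p = 0.251) while that from the midpoint was 3.80 ± 0.26 (0.000114). Pth1r (the receptor of parathyroid hormone-related protein, chr9:110722085-110747145) measured 1162, 2509 and 7125 CPM in MatC, 148, 100.2 and 576 CPM in ImC and 340.4, 366 and 295 CPM in Bone. MatC did not overlap the others. Its midpoint difference was 3.57 ± 0.63 (adjusted p = 0.015), 2.60 without replicate 3 of MatC, and the call was lost without replicate 3 of MatC or any 1 Bone library (adjusted p up to 0.0602). Scin (scinderin, an actin-severing protein), outside the rule for naming and chosen after its values were seen, measured 87.6, 34.6 and 104 CPM in MatC, 33.2, 15.6 and 13.1 CPM in ImC and 5.63, 10.02 and 11.8 CPM in Bone, a difference of 2.45 ± 0.42 (adjusted p = 0.012) with no overlap.

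Mmp13 (collagenase 3, which degrades cartilage collagen, chr9:7272514-7283331) and Mef2c (a transcription factor that drives hypertrophy, chr13:83504034-83667080) lay near or under the Bone level. Mmp13 had 1 read in all ImC libraries and measured 7.28, 50.3 and 41.9 CPM in MatC and 21.4, 37.8 and 37.2 CPM in Bone. The MatC to ImC ratio was 1430.0 with a 95% counting interval of 256 to 56600.0, and the MatC and Bone libraries overlapped. The difference from the midpoint was 5.05 ± 1.07 (adjusted p = 0.00399; 5.93 without replicate 3 of ImC), against 1.04 ± 0.60 from the linear midpoint (0.518). Mef2c measured 634, 442 and 383 CPM in MatC, 34.5, 40.9 and 30.2 CPM in ImC and 696, 653 and 744 CPM in Bone. All MatC libraries were under all Bone libraries and far above ImC, with a midpoint difference of 1.63 ± 0.25 (adjusted p = 0.00629). Of 7 tested genes for Mef2 factors and class IIa histone deacetylases, which repress Mef2 factors, Mef2c alone was called.

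Panx3 (pannexin 3, a channel of hypertrophic chondrocytes and osteoblasts, chr9:37659902-37669235) and Spp1 (osteopontin, chr5:104435118-104441050) were not called with all libraries. Panx3 measured 699.7, 327 and 716 CPM in MatC, 22.6, 0.496 and 1.57 CPM in ImC and 380.0, 546 and 459.7 CPM in Bone. ImC replicate 1 was well above the other ImC libraries, and the difference was 3.24 ± 0.85 (adjusted p = 0.0685). Without that library it was 4.72 and called (adjusted p = 0.00276). It was also called without replicate 2 of ImC, without a filter, with DESeq2, with limma-voom and with the replicate block. Spp1 measured 66.9, 1834 and 644 CPM in MatC, 0.583, 0.745 and 3.63 CPM in ImC and 1853, 49.1 and 54.7 CPM in Bone, so MatC and Bone each had libraries far apart, with a difference of 4.69 ± 1.22 (adjusted p = 0.0769). It was 6.51 and called without replicate 1 of Bone (adjusted p = 0.021), 5.33 without replicate 3 of ImC and 3.42 without replicate 2 of MatC, and it was called without a filter and with DESeq2. Neither shows that MatC lay at the midpoint: the 95% intervals were 1.37 to 5.12 and 1.98 to 7.40.

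Cartilage matrix and chondrocyte identity genes were the list with most calls among skeletal genes. In it 15 of 26 were above the midpoint (2.98% over all genes) and 0 below, with a median difference of 2.24. None was called against the linear midpoint, where the median was 0.29. Bone was called below ImC in 23 of the 26, against 16.8% of all genes. Of the 15 genes, 14 were not called between MatC and ImC, and Vit, a Bone-high member, was called higher in MatC (5.41% of all genes were higher and 2.29% lower). The list's count was 9 without Bone replicate 2. Acan (aggrecan, the main proteoglycan of cartilage, chr7:79053483-79115099) measured 969, 630.0 and 1520.0 CPM in MatC, 1129, 865 and 1347 CPM in ImC and 0.596, 0.856 and 1.91 CPM in Bone. MatC and ImC overlapped, and both were far above the Bone level. The midpoint difference was 4.87 ± 0.40 (adjusted p = 0.000395), and the difference from ImC was -0.10 ± 0.45 (adjusted p = 0.918). Matn1 (matrilin 1, which links collagen and proteoglycan, chr4:130944385-130955475) measured 1410.4, 698 and 2004 CPM in MatC, 2578, 581 and 2136 CPM in ImC and 1.299, 1.03 and 1.91 CPM in Bone, a midpoint difference of 4.77 ± 0.49 (0.00101). Col9a3 (a chain of type IX collagen, chr2:180597790-180622189) measured 1457, 963 and 2078 CPM in MatC, 2536, 1886 and 2389 CPM in ImC and 2.92, 1.71 and 2.98 CPM in Bone. Here the MatC mean was the lower of the cartilages, -0.60 ± 0.37 from ImC (adjusted p = 0.349), and the midpoint difference was 4.30 ± 0.32 (0.000257).

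Comp (cartilage oligomeric matrix protein, chr8:70373558-70382066) departed furthest within the list. It measured 751, 487 and 1999 CPM in MatC, 209, 127 and 415 CPM in ImC and 0.6497, 0.342 and 1.07 CPM in Bone, and all MatC libraries were above all ImC libraries. The midpoint difference was 6.33 ± 0.53 (adjusted p = 0.000512; 5.53 without replicate 3 of MatC), and MatC over ImC was 2.11 ± 0.59 (adjusted p = 0.0638). Foxa3 (a forkhead factor of hypertrophic chondrocytes, chr7:19013284-19023538) followed the matrix genes, with 30.6, 17.7 and 66.5 CPM in MatC, 43.8, 30.6 and 51.9 CPM in ImC and 0.162, 0.0856 and 0.0563 CPM in Bone. The cartilages overlapped, and the difference from the midpoint was 4.12 ± 0.50 (adjusted p = 0.00129; 3.48 without replicate 3 of MatC). Of the list's members, Cnmd (chondromodulin) and Snorc (a cartilage proteoglycan) stand in the table under the older symbols Lect1 and 3110079O15Rik and were not counted in the 26. Their differences were 5.31 ± 0.57 (adjusted p = 0.00129; 4.55 without replicate 3 of MatC) and 5.07 ± 0.50 (0.000861).

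Col2a1 (type II collagen, chr15:97975602-98004695) and Sox9 (chr11:112782224-112787760), the genes most used to define cartilage, departed less. Col2a1 measured 8396, 4769 and 8399.7 CPM in MatC, 8402, 8574 and 9782 CPM in ImC and 682, 388 and 297 CPM in Bone. Bone held a clear level, so the midpoint was nearer to MatC than for Acan, and the difference was 1.83 ± 0.36 (adjusted p = 0.0216). That call was lost without replicate 1 of ImC, replicate 1 or 3 of MatC or replicate 2 or 3 of Bone (adjusted p up to 0.0832). Sox9 measured 458, 199.6 and 628 CPM in MatC, 869, 885 and 550.4 CPM in ImC and 28.04, 44.6 and 38.4 CPM in Bone, and only MatC replicate 3 reached into the ImC range. Its difference of 1.35 ± 0.36 was not called (adjusted p = 0.0737). It was called without replicate 2 of MatC (1.68, adjusted p = 0.0264), without a filter and with DESeq2, and against the linear midpoint it was 0.09 ± 0.41.

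**Figure D3:**
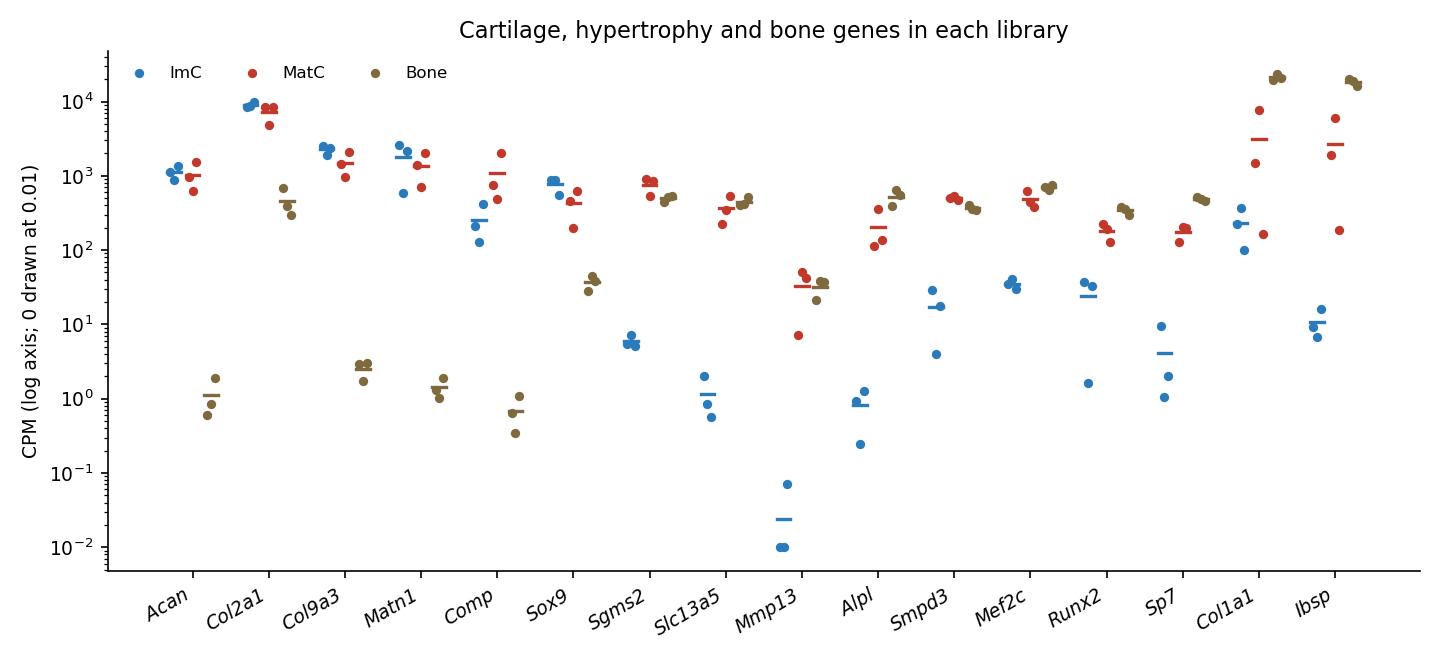
CPM (log axis) of 16 genes of cartilage, hypertrophy and bone in each of the 9 libraries, with points for libraries and short lines for the mean of each tissue (blue ImC, red MatC, brown Bone). From Acan to Matn1 the red points stay with the blue ones far above Bone. From Sgms2 to Mef2c they lie nearer to the brown ones and far above ImC, with Alpl and Mef2c under Bone. For Col1a1 and Ibsp the 3 red points spread over more than 10 times.

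The osteoblast and bone matrix list had 3 of 31 genes above the midpoint (2.98% over all genes) and 0 below, although its median was 1.41. Against the linear midpoint the median was -1.30, so on that scale MatC lay nearer to ImC. Of the 31 genes 27 were called higher in Bone than in ImC, against 14.3% of all genes, and 26 had a MatC mean between the 2 tissues, against 54.6%. MatC replicate 3 departed from the others: the list's median was 0.93, 1.90 and -1.09 in replicates 1, 2 and 3. Without MatC replicate 3 the count was 6, without ImC replicate 1 it was 5 and without Bone replicate 2 it was 1. Without both the ImC and the MatC replicate 3, 10 of 31 were above.

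The 3 called genes were Alpl, Smpd3 and Dlx3. Alpl (tissue-nonspecific alkaline phosphatase, which frees phosphate for mineral, chr4:137741733-137796384) measured 113, 359 and 137 CPM in MatC, 0.917, 0.248 and 1.28 CPM in ImC and 397, 636 and 546 CPM in Bone. All MatC libraries were under all Bone libraries and over 80 times the ImC ones. The midpoint difference was 3.31 ± 0.48 (adjusted p = 0.00521; 2.60 without replicate 2 of MatC) and the linear one -0.38 ± 0.53 (0.833). Smpd3 (neutral sphingomyelinase 2, needed for normal skeletal mineralisation, chr8:106252548-106337988) measured 508, 530.2 and 475 CPM in MatC, 29.2, 4.02 and 17.9 CPM in ImC and 399.5, 357 and 342 CPM in Bone, with MatC above both throughout. Its difference was 2.68 ± 0.46 (adjusted p = 0.012), and the call was lost without replicate 2 of Bone (adjusted p up to 0.0524). Dlx3 (a homeobox factor of bone-forming cells, chr11:95120119-95125296) measured 15.9, 46.9 and 17.5 CPM in MatC, 0.417, 0.248 and 0 CPM in ImC and 128, 131 and 119 CPM in Bone, a difference of 2.34 ± 0.52 (adjusted p = 0.0303; 1.64 without replicate 2 of MatC) that was lost without replicate 2 of ImC, replicate 2 of MatC or any 1 Bone library (adjusted p up to 0.117). Its linear difference was -1.22 ± 0.51.

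The regulators and main matrix genes of bone were not called with all libraries. Runx2 (chr17:44495987-44814797) measured 224, 192 and 130.1 CPM in MatC, 36.7, 1.64 and 33.2 CPM in ImC and 375, 353 and 300.4 CPM in Bone, and Sp7 (chr15:102356606-102367182) measured 129, 202 and 198 CPM, 9.42, 1.04 and 1.99 CPM and 517, 480.2 and 459 CPM in the same order. For both, every MatC library lay between every ImC and every Bone library. The differences were 1.01 ± 0.65 (adjusted p = 0.523) and 1.99 ± 0.54 (0.0752), with 95% intervals of -0.44 to 2.46 and 0.79 to 3.18. Sp7 passed the test without replicate 1 of ImC (2.67, adjusted p = 0.00412), without a filter, with DESeq2 and with limma-voom, and was -0.47 at the linear midpoint, where Runx2 was -0.01. Col1a1 (type I collagen, chr11:94936224-94953042) measured 1487, 7726 and 164 CPM in MatC, 222, 367 and 100.1 CPM in ImC and 19752, 23189 and 20609 CPM in Bone. MatC replicate 3 lay within the ImC range, and replicate 2 was the highest of MatC and under every Bone library. The difference was 0.50 ± 0.85 (adjusted p = 0.848), and its sign was not stable. It was -1.42 without replicate 2 of MatC, -0.82 with limma-voom, -0.38 with the replicate block or with library size as the only scaling, and -1.78 at the linear midpoint. Ibsp (bone sialoprotein, chr5:104299171-104311469) measured 1914, 5943 and 185 CPM in MatC, 9.25, 6.701 and 16.3 CPM in ImC and 20079, 19057 and 16294 CPM in Bone, a difference of 2.59 ± 0.75 (adjusted p = 0.0992). It was 1.24 without replicate 2 of MatC, passed the test without replicate 3 of MatC (3.13, adjusted p = 0.0122), without a filter and with DESeq2, and was -1.79 at the linear midpoint. In the mineralization list, which shares Alpl and Smpd3, 4 of 17 genes were above (2.98% over all genes). The others called were Mgp (matrix Gla protein, which inhibits calcification) and Fam20c (a kinase of secreted phosphoproteins). That count was 1 without Bone replicate 2 and 2 without Bone replicate 3 or ImC replicate 1.

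Genes called above the midpoint with a mean between the tissues were grouped by the higher tissue, into a Bone side and an ImC side. The choice of genes itself places them nearer to the higher tissue on the log2 scale. Slc13a5 (a citrate transporter of bone, chr11:72241989-72267222) had the largest difference on the Bone side among those named by rule. It measured 223, 344 and 532 CPM in MatC, 2.0, 0.844 and 0.5697 CPM in ImC and 408, 418 and 517 CPM in Bone. MatC and Bone overlapped, and the difference was 4.03 ± 0.39 (adjusted p = 0.000672), against 0.71 ± 0.43 from the linear midpoint. Kitl (the ligand of the receptor KIT, chr10:100015630-100100416) measured 18.6, 9.73 and 6.51 CPM in MatC, 0.333, 0.0993 and 0.0712 CPM in ImC and 22.7, 24.8 and 21.2 CPM in Bone, a difference of 2.60 ± 0.45 (0.011). The others named by rule on this side were Alpl, Dlx3, Entpd3, Tnfaip2, Prrx1 and Aldh1a3, with differences from 2.20 ± 0.48 (Aldh1a3, which makes retinoic acid) to 3.31 ± 0.48 (Alpl). They were not all near the Bone level. The MatC mean was 0.213 of the Bone mean for Dlx3, 0.262 for Entpd3 and 0.386 for Alpl, but 0.887 for Aldh1a3. Dlx3 was called lower in MatC than in Bone (-2.22 ± 0.51, adjusted p = 0.0382). Calls for Aldh1a3, Entpd3, Prrx1 and Tnfaip2 were each lost without any 1 Bone library, and also without some other libraries. With 1 library left out at a time, calls held in 2 of 9 fits for Aldh1a3, Entpd3 and Prrx1 and in 5 for Tnfaip2. On the ImC side Susd5 (chr9:114057140-114098728) measured 141, 64.01 and 208 CPM in MatC, 359, 205 and 213 CPM in ImC and 0.271, 0.257 and 0.0563 CPM in Bone, a difference of 4.26 ± 0.46 (adjusted p = 0.000903). Its MatC mean was about that of the linear midpoint, from which it differed by 0.09 ± 0.46. The other ImC-side genes were Acan, Matn1, Col9a3, Foxa3, Col9a2, Ncmap and S100b, with differences from 3.14 ± 0.53 (S100b) to 4.87 ± 0.40 (Acan).

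Signalling genes were called in small numbers, and most of those named were ligands. The counts of the signalling and enzyme lists stand against 2.98% above the midpoint over all genes. Of 27 Wnt genes 7 were above the midpoint (median 1.22), namely the ligands Wnt4, Wnt5b, Wnt10b and Wnt11, the enhancer Rspo3, the modulator Dkk2 and the transcription factor Tcf7. The count was 4 without Bone replicate 2. Wnt4 (chr4:137277489-137299726) measured 61.4, 47.7 and 63.6 CPM in MatC, 20.2, 5.46 and 26.7 CPM in ImC and 2.65, 1.97 and 2.14 CPM in Bone, with no overlap. Its difference was 3.19 ± 0.41 (adjusted p = 0.00296). Rspo3 (R-spondin 3, which raises Wnt receptor levels, chr10:29452416-29535867) measured 156, 42.6 and 29.4 CPM in MatC, 6.42, 0.695 and 11.3 CPM in ImC and 1.84, 1.71 and 1.24 CPM in Bone. MatC replicate 1 was several times the other MatC libraries, and the difference was 4.61 ± 0.71 (adjusted p = 0.00887; 3.52 without replicate 1 of MatC). Dkk2 (chr3:132085292-132180304) rested more heavily on that library, with 86.5, 9.799 and 8.77 CPM in MatC, 0.167, 0.199 and 2.35 CPM in ImC, 1.62, 3.08 and 3.604 CPM in Bone and a difference of 4.48 ± 0.88 (adjusted p = 0.0243; 5.59 without replicate 3 of ImC and 2.55 without replicate 1 of MatC). That call was lost without replicate 1 of ImC, replicate 1 of MatC or any 1 Bone library (adjusted p up to 0.153).

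In the hedgehog and PTHrP list 3 of 16 genes were above, Ihh, Pth1r and Hhip. Hhip (a membrane protein that binds and limits hedgehog, chr8:79965851-80058006) measured 106, 43.6 and 2.26 CPM in MatC, 0.333, 2.13 and 4.06 CPM in ImC and 2.599, 1.71 and 3.66 CPM in Bone. MatC replicate 3 lay within the range of the other tissues. The difference was 4.39 ± 0.86 (adjusted p = 0.0243; 3.27 without replicate 1 of MatC), and the call was lost without replicate 1 of ImC, replicate 1 or 2 of MatC or any 1 Bone library (adjusted p up to 0.0923). The list's count was 1 without any 1 Bone library and 2 without ImC replicate 1 or any 1 MatC library. The receptor and transducer genes Ptch1, Smo, Gli1, Gli2 and Gli3 were not called. Ptch1 (the hedgehog receptor and itself a target of the signal), outside the rule for naming, measured 399, 160.1 and 207 CPM in MatC, 126, 99.02 and 84.96 CPM in ImC and 68.97, 124 and 154 CPM in Bone, a difference of 1.22 ± 0.35 (adjusted p = 0.0948).

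Of 35 BMP and TGF-beta genes 3 were above, Bmp8a, Tgfb2 and Tgfb1. Bmp8a (a BMP ligand, chr4:123312645-123343252) measured 10.3, 34.7 and 29.1 CPM in MatC, 0.333, 0.0496 and 0.0712 CPM in ImC and 24.96, 21.8 and 25.5 CPM in Bone, overlapping Bone, with a difference of 3.72 ± 0.51 (adjusted p = 0.00296). Tgfb2 (transforming growth factor beta 2, chr1:186622792-186705989) measured 226, 60.5 and 91.1 CPM in MatC, 19.3, 32.9 and 29.1 CPM in ImC and 24.5, 33.5 and 40.03 CPM in Bone. MatC was above both tissues throughout, with a difference of 2.08 ± 0.39 (adjusted p = 0.0181; 1.34 without replicate 1 of MatC) that was lost without replicate 1 of ImC or replicate 1 or 2 of Bone (adjusted p up to 0.0674). The list's count was 1 without Bone replicate 1 or 2. Of 15 FGF genes, Fgf9 (a ligand) and Fgfr3 (a receptor that slows chondrocyte growth) were above. The count was 0 without any 1 Bone library, ImC replicate 1 or MatC replicate 1, was 1 without ImC replicate 2 or MatC replicate 3 and was 3 without ImC replicate 3.

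Among matrix enzymes, Mmp13 was called alone of 19 proteases and inhibitors, and Loxl4 alone of 23 genes for collagen folding and cross-linking. The protease count was 2 without replicate 2 or 3 of ImC or MatC replicate 3, and the collagen count was 3 without ImC replicate 3 or MatC replicate 3. Loxl4 (a lysyl oxidase-like enzyme that cross-links collagen, chr19:42593982-42612813) measured 55.1, 53.9 and 130.4 CPM in MatC, 1.17, 1.09 and 1.35 CPM in ImC and 61.1, 58.7 and 49.1 CPM in Bone, overlapping Bone, a difference of 3.27 ± 0.31 (adjusted p = 0.000662). No gene was called in either direction among 25 of glycosaminoglycan and sulfate handling (median 0.31), 25 of hypoxia and glycolysis (0.03), 22 of secretion and endoplasmic reticulum stress (0.25) and 24 of the cell cycle (-0.10). Without ImC replicate 3 the first of these lists had 2 calls above and the second 1, and without MatC replicate 2 the first had 1. In the cell cycle list 22 of 24 genes had a MatC mean between the tissues (54.6% of all genes), and 18 were called higher in ImC than in Bone (16.8%). With library size as the only scaling the median over all genes shifted by -0.77, and the list medians then read -0.49, -0.80, -0.46 and -1.002.

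The 11 genes called below the midpoint include 2 that met the rule for naming, Selenbp1 and Limch1. Selenbp1 (an enzyme that oxidises methanethiol, chr3:94933056-94944758) measured 4.32, 5.08 and 1.98 CPM in MatC, 14.8, 24.2 and 22.3 CPM in ImC and 27.99, 21.4 and 20.3 CPM in Bone. All MatC libraries were under the other 6, and the means of the other tissues were 5.39- and 6.13-fold that of MatC. The difference was -2.47 ± 0.33 (adjusted p = 0.00621), and the adjusted p for below both tissues was 0.0965. Limch1 (a regulator of non-muscle myosin, chr5:66745827-67057158) measured 6.44, 10.2 and 2.55 CPM in MatC, 80.7, 44.7 and 89.4 CPM in ImC and 17.3, 12.2 and 18.2 CPM in Bone. Its MatC mean was nearer to Bone, and the difference was -2.35 ± 0.39 (adjusted p = 0.0181), lost without replicate 1 of MatC or replicate 1 or 3 of Bone (adjusted p up to 0.0557).

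Another 8 are named because they were called, after their values were seen. Dab1 (an adaptor of the reelin pathway, chr4:103619359-104744844) had 5 reads in MatC, all in replicate 2, and measured 7.499, 7.15 and 23.6 CPM in ImC and 6.77, 2.57 and 3.77 CPM in Bone. The difference was -5.53 ± 1.01 (adjusted p = 0.0153; -4.83 without replicate 1 of MatC and -9.70 without replicate 2 of MatC). Cep170b, Frmd5, Pcsk2 (a proprotein convertase), Samd5 and the predicted genes Gm14776 and Gm26603 were each lost without any 1 Bone library. Each was also lost without some ImC and MatC libraries. With 1 library left out at a time, calls held in 1 of 9 fits for Frmd5, Pcsk2 and Samd5. They held in 2 for Cep170b and Gm14776 and in 4 for Gm26603. Pcsk2, Frmd5 and Samd5 had 1, 5 and 10 reads in all of MatC. Lhx8 (a LIM homeobox factor) had 3 reads in ImC, 2 in MatC and a mean of 38.5 ± 3.34 CPM in Bone, so its call rests on counts near 0; it was lost without replicate 2 of ImC, replicate 1 or 2 of MatC or any 1 Bone library (adjusted p up to 0.986).

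Where ImC and Bone differed strongly, the median log2 difference of MatC from the midpoint grew with the size of the gap. Of 1199 genes called higher in Bone than in ImC by a log2 fold of at least 2 (8.41% of those tested), 115 were above the midpoint and 2 below. Of 1432 genes higher in ImC (10%), 157 were above and 3 below. The median difference was 0.98 in the former and 0.43 in the latter, against 0.06 over all genes. It rose with the gap, from 0.39 through 1.18 to 2.32 for Bone-high genes at log2 folds of 2 to 4, 4 to 6 and 6 or more. For ImC-high genes it was 0.21, 1.30 and 2.41. A MatC level at a fixed fraction of the gap, nearer to the higher tissue, would give a rise by itself. As a fraction of the log2 distance from ImC to Bone, the median position of MatC was 0.64, 0.75 and 0.80 for Bone-high genes. For ImC-high genes that fraction was 0.42, 0.22 and 0.21, nearly the same in the 2 wider classes. Against the linear midpoint the medians were negative in all 6 classes, from -0.53 to -0.11. The midpoints themselves move apart as the gap widens, and the median of each class lay above the geometric and below the arithmetic mean of the other tissues. In the widest Bone-high class 210 of 296 genes had 3 reads or fewer in a tissue, and in the widest ImC-high class 77 of 131. The Bone-high count above was 36, 25 and 33 without Bone replicates 1, 2 and 3, 62 without replicate 1 of ImC and 57 without replicate 2 of MatC. The ImC-high count above was 60, 52 and 70 without those Bone libraries, 63 without replicate 1 of ImC and 78 without replicate 3 of MatC.

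**Figure D4:**
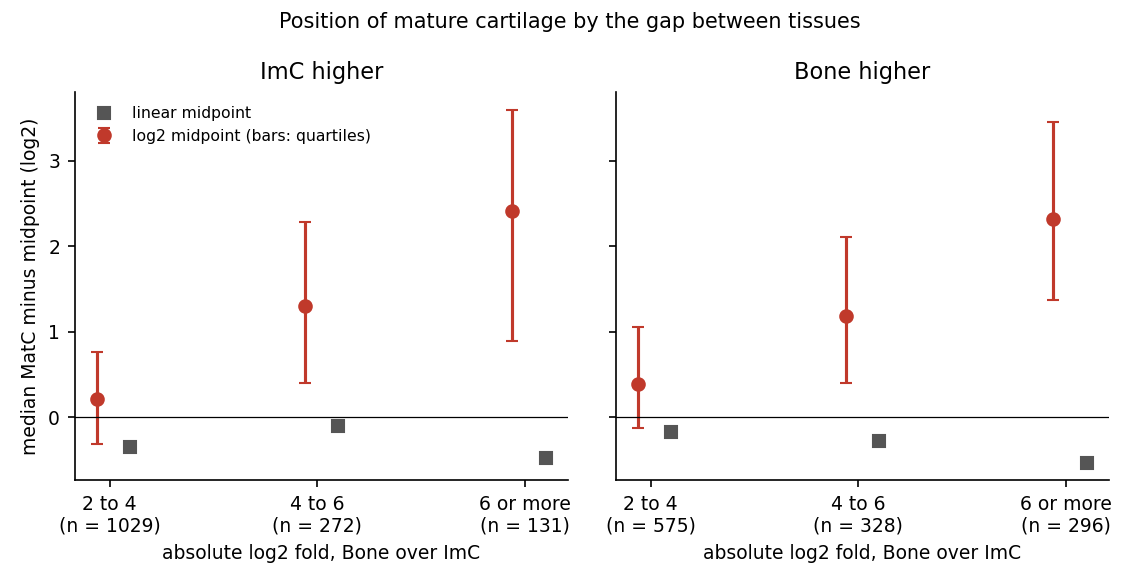
Median difference of MatC from the log2 midpoint (red circles, bars for quartiles) and from the linear midpoint (grey squares) in classes of the absolute log2 fold between Bone and ImC, for ImC-high genes (left) and Bone-high genes (right). The red medians rise from 0.21 to 2.41 on the left and from 0.39 to 2.32 on the right, while the grey squares stay between -0.53 and -0.11.

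Over all genes tested the quartiles of the difference from the midpoint were -0.29 and 0.51. The 95% interval of the difference lay within -1 to 1 for 4111 genes tested (28.8%), for 49 of the 1199 Bone-high genes and for 98 of the 1432 ImC-high genes. The rest include genes measured too imprecisely to place. Among those within the range, Timp1 (an inhibitor of metalloproteinases, chrX:20870166-20874735) measured 64.4, 105 and 76.1 CPM in MatC, 30.7, 25.1 and 29.1 CPM in ImC and 214, 188 and 161 CPM in Bone. Every MatC library lay between every ImC and every Bone library, and the difference was 0.17 ± 0.23 (95% interval -0.34 to 0.68). Smc2 (a condensin subunit that compacts chromosomes, chr4:52439243-52488260) measured 55.9, 61.2 and 55.4 CPM in MatC, 149, 139 and 148 CPM in ImC and 32.7, 23.5 and 35.8 CPM in Bone, a difference of -0.22 ± 0.21 (-0.68 to 0.25). Sdk2 (an adhesion molecule, chr11:113776374-114067046) measured 61.01, 60.6 and 57.7 CPM in MatC against 120.3, 122 and 146 CPM in ImC and 30.5, 25.5 and 25.8 CPM in Bone, a difference of 0.01 ± 0.19 (-0.42 to 0.44). For Cd2ap, Stim2 and Akr1b3 the differences were -0.18 ± 0.21, 0.11 ± 0.22 and 0.01 ± 0.22.

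Hox genes, homeobox factors that set position along the body axes, were high in both cartilages and near 0 in Bone; they were chosen after their values were seen. Of 14 tested, 6 were above the midpoint and 0 below, against 2.98% above over all genes. Among the 6, ImC or Bone held 3 reads or fewer for Hoxa5, Hoxa7, Hoxa9, Hoxb2 and Hoxc5, but not for Hoxa10. The summed level of the 14 was 337.6 to 531.6 CPM in ImC, 176.3 to 234.4 CPM in MatC and 1.80 to 3.94 CPM in Bone. Hoxa9 measured 51.8, 54.3 and 47.8 CPM in MatC, 97.7, 66.2 and 194 CPM in ImC and 0, 0 and 0.113 CPM in Bone (difference 4.39 ± 0.64, adjusted p = 0.00129; 5.61 without replicate 3 of Bone). Of the 6, Hoxa7, Hoxb2 and Hoxc5 were lost without any 1 Bone library, replicate 1 of ImC or replicate 2 of MatC (adjusted p up to 0.116), which left 3. With 1 library left out at a time, calls of Hoxa7, Hoxb2 and Hoxc5 held in 4, 3 and 1 of 9 fits. The median of the 14 against the linear midpoint was -0.15. Whether the tissues were taken from the same skeletal elements is not given in the sources used here, so tissue and element cannot be told apart.

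Markers of other cell types varied between MatC libraries, and their part in the results above was not tested. Their counts stand against 2.98% above the midpoint over all genes. Endothelial markers were called above the midpoint in 2 of 20 genes (Tek and Erg), with 13 of 20 means in MatC above both tissues (23.8% of all genes) and summed levels of 18.6 to 39.2 CPM in ImC, 130.7 to 450.4 CPM in MatC and 88.8 to 258.2 CPM in Bone. Cldn5 had 0 reads in ImC, and the list's median by library was 1.15, 2.72 and -0.78 in MatC. Without MatC replicate 3, 10 of 20 were above, and without both the ImC and the MatC replicate 3 14 were; without ImC replicate 1, MatC replicate 2 or Bone replicate 1 or 2, none was. The count was 1 without Bone replicate 3. In MatC replicate 3, where the bone list was also low, Cdh5 and Emcn were at 0.566 and 0.283 CPM, under the 0.849 CPM of 3 reads. The endothelial list summed to 130.7 CPM in that library, above every ImC library, but Erg alone gave 85.4 CPM of that sum. Erg measured 7.76 to 20.35 CPM in ImC. Of the list's 20 members, 5 were above the midpoint in MatC replicate 3. Perichondrium, tendon and fibroblast markers were called in 7 of 25 genes, Tnmd, Igf1, Aspn, Prrx1, Ogn, Thy1 and Fbn1. Their summed level was 429.2 to 2944 CPM in ImC, 2590.0 to 5614 CPM in MatC and 4350.0 to 5594 CPM in Bone, and the count was 1 without MatC replicate 1 or any 1 Bone library, 2 without ImC replicate 1 and 4 without ImC replicate 2 or MatC replicate 2. Aspn (asporin) measured 383, 50.6 and 76.9 CPM in MatC and 12.7, 9.43 and 7.26 CPM in ImC, highest in MatC replicate 1.

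Osteoclast markers (1 of 14 called, Itgb3) summed to 73.2 to 168.4 CPM in ImC, 184.7 to 787.8 CPM in MatC and 573.5 to 1214 CPM in Bone; Calcr had 0 reads in ImC. Macrophage and leukocyte markers (1 of 14, C1qa) summed to 11.9 to 32.5, 24.9 to 125.2 and 62.6 to 152.3 CPM in the same order, with C1qa at 0 in ImC. Within MatC both lists were highest in replicate 2. Itgb3 was lost without replicate 2 or 3 of MatC or any 1 Bone library, and C1qa without any 1 library other than ImC replicate 3. Erythroid markers (0 of 10) summed to 12.5 to 1824, 1146 to 4724 and 7959 to 11300.0 CPM, with ImC replicate 3 the highest of ImC; leaving that library out gave 6 of 10 above, and leaving out MatC replicate 1 gave 1. Skeletal muscle markers (0 of 13) summed to 19.3 to 104.0, 55.9 to 659.9 and 13.5 to 189.5 CPM, highest in MatC replicate 2, with all 13 means in MatC above both tissues; 4 were above without replicate 3 of ImC and 1 without MatC replicate 1 or Bone replicate 3. Pericyte and smooth muscle markers (1 of 8, Cspg4) summed to 665.5 to 1109, 412.6 to 624.3 and 65.1 to 97.4 CPM. Cspg4 alone gave 652 to 1082 CPM in ImC and 344 to 597 CPM in MatC, most of each sum. The order of these sums is therefore mainly that of Cspg4. The list's median difference from the midpoint was -0.99, -0.50 and 0.17 in the ImC libraries and 0.81, 1.38 and 0.27 in the MatC libraries. The list's count was 0 without any 1 Bone library, ImC replicate 1 or 2 or MatC replicate 2. It was 2 without ImC replicate 3 or MatC replicate 1 or 3. Nerve and Schwann cell markers (3 of 11, S100b, Stmn2 and Mbp) summed to 110.4 to 567.7, 141.7 to 265.9 and 30.8 to 45.7 CPM, and chondrocytes also express S100b. Mitochondrially encoded genes were called in 12 of 13 with a median of 3.06, but in 0 without any 1 Bone library or ImC replicate 1 in 1 without MatC replicate 3, in 4 without ImC replicate 2 and in 5 without MatC replicate 2. Of the 17 immediate early and stress genes, Egr2 (a zinc finger factor) was called, and lost without replicate 1 or 2 of ImC, replicate 2 or 3 of MatC or replicate 2 or 3 of Bone (adjusted p up to 0.0726).

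**Figure D5:**
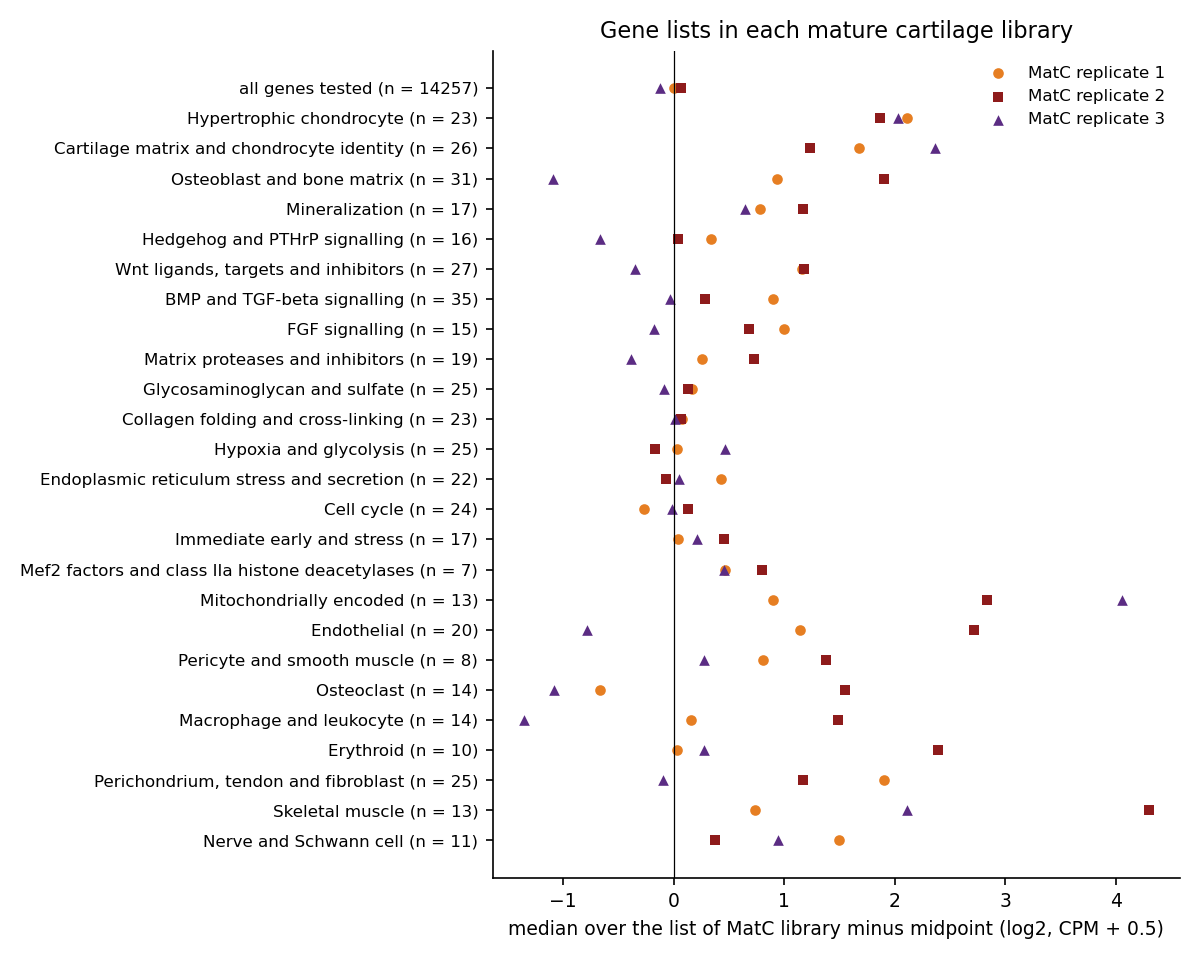
Median over each gene list of the level in 1 MatC library minus the midpoint of ImC and Bone (log2 of CPM + 0.5), with 1 symbol per MatC library and the number of genes in brackets. The hypertrophic and cartilage matrix lists are between 1.23 and 2.36 in all 3 libraries, whereas the osteoblast list is at 0.93, 1.90 and -1.09 and the endothelial list at 1.15, 2.72 and -0.78.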

How the data were processed

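RNA from ImC, MatC and Bone of C57BL/6J mice was amplified in 1 round and made into libraries with a TruSeq v2 kit that does not keep strand, per the labels' protocols, so overlapping and antisense genes cannot be told apart. The submitters' processing notes name Trimmomatic 0.30, TopHat2, Bowtie2, HTSeq, edgeR and the build mm10. The authors deposited raw read counts per gene for 9 libraries, with 7913684 to 23159547 counts each. All 9 were fitted together with edgeR 4.0.16 in R 4.3.3 (TMM factors, filterByExpr with a minimum count of 10, quasi-likelihood test, Benjamini-Hochberg adjustment over 14257 genes). CPM are per TMM-scaled library size. The linear midpoint used a Wald test with the same spread, and a gene beyond both tissues had to pass MatC over ImC and MatC over Bone together.

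The floor for a tissue at 0 was 3 reads over the group, and 95% intervals on read ratios cover counting error only. Replicates differed by far more than sampling noise, with mean chi-square values of 15.5 to 463 per gene, and none was merged. The expected counts followed total counts without TMM scaling. Differences between libraries in the mitochondrial share therefore enter these values, which do not measure the spread of a typical gene. On simulated data (13728 genes tested) the midpoint test recovered 3.03% of 2-fold, 33.3% of 4-fold and 68.2% of 8-fold changes with 1 false call, so an uncalled gene may differ by several fold. The simulation gave each gene the same dispersion in all tissues and drew libraries independently. The real libraries varied less in Bone than in MatC, so the false call count does not measure the error rate here.

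Members and gene lists were chosen with earlier results of these data known. Genes were named by a rule: fixed anchors, the 15 with the largest excess over both tissues among genes called above whose MatC libraries did not overlap the others (mean of at least 10 CPM), the same below, 8 per side with a mean between the tissues, genes near the midpoint, and leading list members. Single-gene values of a few genes that met the rule or were called are not reported here. Coordinates are from GENCODE M21 (GRCm38), which matched 13373 of 14257 genes, and promoters from RefSeq (GRCm38.p6), where 281 of 425 genes called above had an entry. Alternatives changed the scaling, the filter, the test (DESeq2 1.42.0, limma 3.58.1), the midpoint and the libraries; leaving out replicate 3 of both ImC and MatC was added after seeing the data.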

Additional observations from a re-analysis of the deposited data

How the results depend on the processing

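Counts are given as above and below the midpoint, then beyond both tissues, then among Bone-high and ImC-high genes. With library size as the only scaling 70 and 5 genes were called, 1 beyond both, 11 above, 0 below and 2 near the midpoint among Bone-high genes, and 34, 1 and 3 among ImC-high genes. Without a filter on low counts there were 956 and 56, then 65 above and 3 below both tissues, then 302, 5 and 93 among Bone-high genes and 273 above and 10 below among ImC-high genes. With a mean of at least 5 CPM, 248 were above, with 61 above and 1 below among Bone-high and 100 above among ImC-high genes. DESeq2 called 806 and 157, 72 above and 4 below both tissues, 257 and 8 among Bone-high and 264 and 21 among ImC-high genes. limma-voom called 4 beyond both, 1 below among Bone-high and 83 above among ImC-high genes. At the linear midpoint there were 62 and 21 calls, with 5 above among Bone-high genes and 11 above, 15 below and 54 near among ImC-high genes. There the differences of Alpl (-0.38), Dlx3 (-1.22), Entpd3 (-0.90), S100b (-0.00) and Tgfb1 (-0.37) turned negative. Without replicate 3 of both ImC and MatC, chosen after seeing the data, there were 766 and 54 calls, 14 above and 1 below both tissues, 343 above and 99 near among Bone-high genes, and 16 below and 150 near among ImC-high genes. The causes of these shifts were not tested.

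Leaving out 1 library at a time gave 126 to 662 calls above and 2 to 45 below, with 0 to 10 above and 0 to 1 below both tissues. Among Bone-high genes the ranges were 25 to 161 above, 0 to 4 below and 27 to 75 near, and among ImC-high genes 52 to 182, 0 to 12 and 37 to 111. DESeq2 size factors gave 415 and 11 calls, and removing mitochondrially encoded genes gave 398 and 11. With the replicate number as a block there were 345 and 10 calls, 6 beyond both, and 71 above among Bone-high genes. Deviations of same-numbered libraries correlated at -0.13 to 0.24, and in 6 of 18 cases a library correlated best with its own number, so the numbers do not show a pairing. MatC replicate 3 limits the depth, since 3 reads equal 0.849 CPM there.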
